A study of Mus musculus with 9 samples.

Results

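The Bcl2 family of apoptosis regulators was followed through 10 genes, *Bcl2*, *Bcl2l1*, *Mcl1*, *Bax*, *Bak1*, *Bbc3*, *Pmaip1*, *Bid*, *Bcl2l11* and *Bad*, which were picked by their symbols among the 52459 gene symbols of the files. All 10 were among the 15370 genes with at least 1 count per 1000000 counts (CPM) in at least 3 libraries, the genes that were tested. RNA-Seq had been performed on untreated NMuMG cells, an immortalized line of mouse mammary gland epithelial cells, in 9 libraries. The 3 mock libraries (203, 204 and 205) came from cells with the empty vector, the 3 EPR libraries (206, 207 and 208) from cells overexpressing the lncRNA BC030870, named EPR, which also encodes a small peptide, and the 3 EPRSTOPE libraries (209, 210 and 211) from cells overexpressing the same RNA with a point mutation that prevents the peptide from being made. All 3 kinds of cells carried a pBICEP-CMV-2 vector, whose CMV promoter drives the inserted RNA, and were stable pools of transfected cells selected and maintained with G418. The methods call the libraries biological triplicates, but neither they nor the labels say whether the triplicates came from separately transfected pools, so p-values measure the spread between these libraries, and differences between pools that arose at transfection or selection cannot be told apart from effects of the RNA.

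Proteins of the Bcl2 family control the permeability of the mitochondrial outer membrane, the step at which cytochrome c is released and the caspases of the intrinsic pathway are activated. The anti-apoptotic members bind and restrain the effectors Bax and Bak, which form pores in the membrane, and the BH3-only proteins either occupy the anti-apoptotic members or engage the effectors directly. In mammary epithelium the balance between these proteins is known for its part in lumen formation and in involution after lactation.

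The libraries held 5972457 to 11876435 estimated counts, so that 3 counts, the smallest value taken as detected, corresponded to 0.253 to 0.502 CPM. BC030870 itself had 0 to 2 counts in the mock libraries, 214 to 271 in the EPR libraries and 28 to 39 in the EPRSTOPE libraries, so in EPR against EPRSTOPE the peptide and the level of the RNA cannot be told apart. The 12 epithelial markers summed to 3704 to 4171 CPM in mock, 9535 to 10641 CPM in EPR and 10706 to 11045 CPM in EPRSTOPE libraries, and the 12 mesenchymal markers to 4064 to 4227, 2225 to 2454 and 3975 to 4312 CPM. *Krt8* and *Krt18* made up most of the epithelial sums and *Vim* most of the mesenchymal ones. By the rule for calls given below, 4 of 8 tested epithelial markers were higher in EPR than in EPRSTOPE cells and 0 lower. Of all tested genes 6.86% were called higher there and 6.35% lower. Among the 4 was *Epcam*, at 2.40 to 4.30 CPM in EPR libraries and at most 0.21 CPM in EPRSTOPE libraries. It entered the test only through the EPR libraries, where it was high, so its call carries no weight. Of 7 tested mesenchymal markers 1 was higher and 2 lower in EPRSTOPE against mock, beside 15.6% and 12.4% of all tested genes. The 1 higher was *Pdgfra*, at 0 CPM in mock, 0.96 to 1.39 CPM in EPR and 1.02 to 1.5 CPM in EPRSTOPE libraries. It likewise entered the test only through the libraries where it was high. Of the epithelial markers 5 were at 0 in every mock library, *Epcam* among them, 0 in EPR and 4 in EPRSTOPE, and *Cdh1*, which defines epithelial cells, averaged 0.84 CPM in mock cells, 556 in EPR cells and 403 in EPRSTOPE cells. The 6 leukocyte markers summed to at most 4.58 CPM and the 4 endothelial markers to at most 16.7 CPM in any library. The part of these epithelial and mesenchymal differences in the results for the Bcl2 family was not tested.

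The RefSeq promoter table of GRCm38.p6 held at least 1 entry for 9 of the 10 symbols and none for *Pmaip1*. *Bcl2l1* and *Bbc3* had 3 entries each and *Bcl2l11* and *Bad* 2 each. Only 1 window per gene was described, so the other entries of these genes are not covered. The windows of *Bcl2l1* (chr2:152831679-152831978, minus strand), *Bax* (chr7:45466849-45467148, minus strand) and *Bbc3* (chr7:16309333-16309632, plus strand) are given here 5′ to 3′, from 250 bases before to 50 bases after the RefSeq start, since these are the promoters of the members with an entry whose RNA rose against mock in the comparisons that follow. Capitals mark a match to the p53 decamer, a single copy of the p53 consensus motif.
Bcl2l1: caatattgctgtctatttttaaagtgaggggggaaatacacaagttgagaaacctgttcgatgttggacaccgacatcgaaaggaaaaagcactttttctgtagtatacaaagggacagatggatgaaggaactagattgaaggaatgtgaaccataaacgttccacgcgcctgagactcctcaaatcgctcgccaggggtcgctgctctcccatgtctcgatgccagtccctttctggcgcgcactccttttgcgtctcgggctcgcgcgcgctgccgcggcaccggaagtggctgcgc
Bax: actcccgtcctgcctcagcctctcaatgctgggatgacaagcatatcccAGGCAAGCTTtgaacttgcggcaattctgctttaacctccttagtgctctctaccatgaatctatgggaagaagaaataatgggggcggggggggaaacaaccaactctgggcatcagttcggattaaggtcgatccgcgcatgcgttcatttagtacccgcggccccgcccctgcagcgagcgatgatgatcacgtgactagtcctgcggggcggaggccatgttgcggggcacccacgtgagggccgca
Bbc3: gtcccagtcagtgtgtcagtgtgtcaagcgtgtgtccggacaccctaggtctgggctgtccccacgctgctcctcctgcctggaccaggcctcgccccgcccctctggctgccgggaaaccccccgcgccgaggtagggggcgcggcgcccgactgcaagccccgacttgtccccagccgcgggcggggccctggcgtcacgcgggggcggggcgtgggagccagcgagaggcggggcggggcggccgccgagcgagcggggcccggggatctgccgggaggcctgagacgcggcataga

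The *Bax* window held 1 p53 decamer, at -201 from the start, and no other member's window held one, while 8.36% of all 32851 RefSeq promoters of that length did. The full p53 site was found in none of the members' windows and in 0.0731% of all promoters. Both strands were also searched for the E-box CACGTG, the Smad-type motif CAGAC, the GC box GGGCGG, the TATA box TATAAA and the AP-1 motif TGANTCA, none of which contains another. CACGTG was found 2 times in *Bax*, at -9 and 35, and in 7.15% of all promoters. GGGCGG was found in 6 of the 9 windows, 7 times in *Bcl2*, 5 times in *Bbc3*, 3 times each in *Bax*, *Bid* and *Bcl2l11* and 1 time in *Mcl1*, and in 35.7% of all promoters. The *Bcl2l1* window, 1 of the 3 entries of that gene, held none of the motifs. CAGAC (49.6% of all promoters) was found in *Bbc3* and *Bak1*, and TATAAA (13.6%) and TGANTCA (7.81%) in none of the 9 windows. GC content was 52.3% for *Bcl2l1*, 57.3% for *Bax* and 76.0% for *Bbc3*, with 22, 19 and 34 CpG dinucleotides, beside medians of 52.7% and 7 over all promoters. These matches describe the letters of the windows only.

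In EPR cells 4 of the 10 members were higher than in mock cells and 0 were lower. The anti-apoptotic gene *Bcl2l1*, which encodes Bcl-xL, rose 1.83-fold, and the pore-forming effector *Bax* rose 1.82-fold. The BH3-only genes *Bbc3*, which encodes Puma, and *Pmaip1*, which encodes Noxa, rose 3.31-fold and 3.05-fold. *Bcl2*, *Mcl1*, *Bak1*, *Bid*, *Bcl2l11* and *Bad* did not pass the test. A call needed an edgeR quasi-likelihood adjusted p (Benjamini-Hochberg) under 0.01 together with a log2 fold change beyond 0.5, and by this rule 15.2% of all tested genes were called higher and 12.9% lower in EPR cells. The 4 of 10 members called higher are a larger share than that background, in a set of only 10 genes. These genes were chosen with earlier results of these data known, so the share is a description only. At an unadjusted p under 0.05, edgeR, limma-voom and DESeq2 each gave 0 members lower. The median log2 fold change of the 10 members was 0.31, beside -0.011 over all tested genes.

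In EPRSTOPE cells 3 members were higher than in the same mock libraries, *Bcl2l1* 1.66-fold, *Bax* 1.72-fold and *Pmaip1* 1.87-fold, and 0 were lower. *Bbc3* lay just outside the limit with 1.67 times the mock level. Of all tested genes 15.6% were called higher and 12.4% lower in EPRSTOPE cells. At an unadjusted p under 0.05 edgeR, limma-voom and DESeq2 each gave 1 member lower, *Bid*, and by the full rule each called 0 lower. The median log2 fold change was 0.33 for the members and -0.0389 for all tested genes. Both constructs were compared with the same 3 mock libraries, so the values of the comparisons are not independent of each other.

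Compared directly, EPR cells held more *Bbc3*, *Pmaip1* and *Bad* than EPRSTOPE cells, 1.99-fold, 1.64-fold and 1.46-fold, and *Bcl2l1* and *Bax* did not pass the test. Of the 10 members 3 were called higher and 0 lower, beside 6.86% and 6.35% of all tested genes. At an unadjusted p under 0.05 edgeR, limma-voom and DESeq2 each gave 1 member lower, *Bcl2l11*, and by the full rule each called 0 lower. The median log2 fold change was 0.11 for the members and 0.00708 for all tested genes. These 3 calls rest on few libraries: leaving out EPR library 207 left 0 of them, and leaving out EPRSTOPE library 210 or 211 left only *Bbc3*. With counts rebuilt from TPM and the length of each transcript, 0 members were called.

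**Figure D1:**
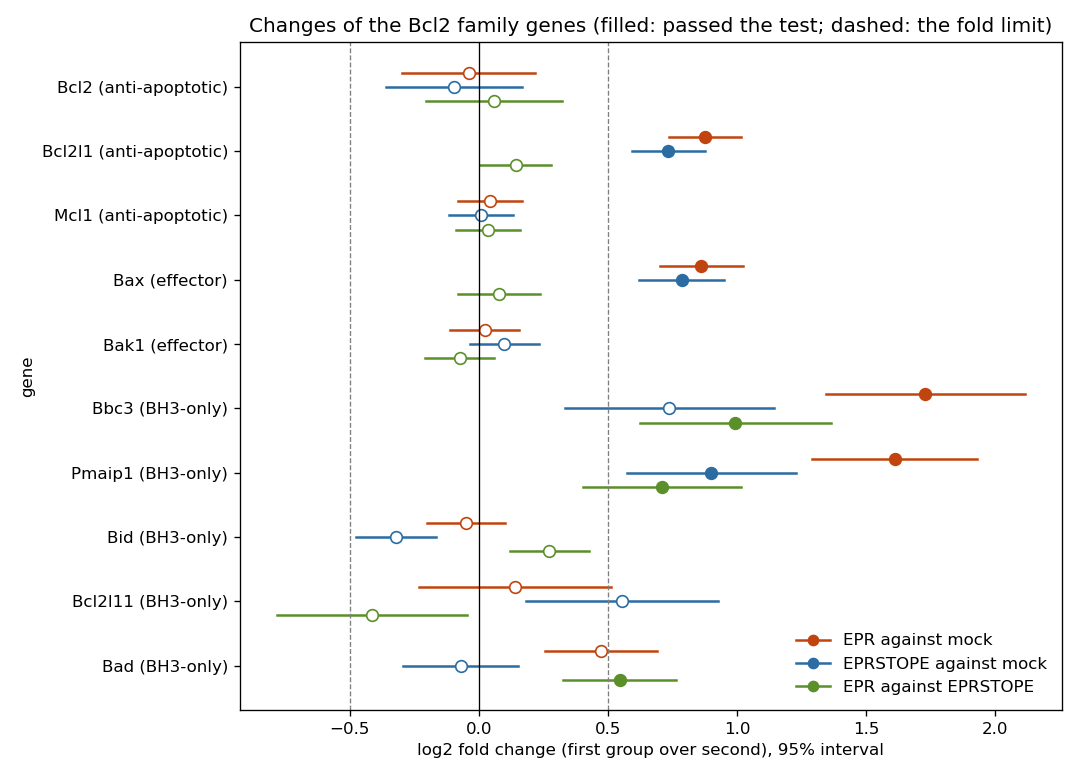
Log2 fold changes (x axis) of the 10 Bcl2 family genes (y axis, with their roles) between EPR and EPRSTOPE and of each of them against mock, with 95% intervals from edgeR. Filled points passed the test and dashed lines mark the limit of 0.5 in either direction. *Bbc3* and *Pmaip1* lie at 1.73 and 1.61 in EPR against mock, and *Mcl1*, *Bcl2* and *Bak1* lie within 0.10 of 0 in all 3 comparisons.

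Among the anti-apoptotic members, *Bcl2l1* (ENSMUSG00000007659.18, chromosome 2 of GRCm38 from 152780668 to 152831728, minus strand) had 76.0, 72.0 and 67.8 CPM in the mock libraries, 141, 131 and 123 CPM in the EPR libraries, and 122, 113 and 123 CPM in the EPRSTOPE libraries. Every library of both overexpressing pools lay above every mock library, and the EPR and EPRSTOPE libraries overlapped. EPR cells exceeded mock by 0.88 on the log2 scale (standard error 0.07, edgeR adjusted p = 8.8e-07) and EPRSTOPE cells by 0.73 (standard error 0.07, edgeR adjusted p = 4.04e-06). Between EPR and EPRSTOPE it was 0.14 (95% interval 0.005 to 0.28, edgeR adjusted p = 0.156). With counts rebuilt from TPM and length both calls against mock were lost, at log2 fold changes of 0.59 and 0.57 and edgeR adjusted p of 0.0258 and 0.0308.

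Of the 9 annotated *Bcl2l1* transcripts 1 was called, and a difference between transcripts was not tested. The coding transcript Bcl2l1-201 (2417 bases), which has the promoter start shown above, held 227, 385 and 488 estimated counts in mock, 786, 726 and 775 in EPR and 371, 556 and 453 in EPRSTOPE libraries. It was called higher in EPR against mock, with a log2 fold change of 1.06 (edgeR adjusted p = 0.00302), and not in EPRSTOPE against mock, where the change was 0.62 (edgeR adjusted p = 0.0327). The call was lost without any 1 of the 3 mock libraries. Its share of the gene's TPM was 26.6 ± 6.3% in mock cells, 41.5 ± 10.2% in EPR cells and 33.7 ± 13.7% in EPRSTOPE cells (SD over n = 3), with spreads that exceed the differences between EPR and EPRSTOPE. Bcl2l1-202, a longer coding transcript, had 18.3, 37.2 and 0.0472 counts in mock, 333, 24.4 and 122 in EPR and 254, 188 and 150 in EPRSTOPE libraries. Every EPRSTOPE library lay above every mock library, and mock and EPR overlapped. It was not called in any comparison, with log2 fold changes of 2.78 in EPR (edgeR adjusted p = 0.273) and 3.62 in EPRSTOPE against mock (edgeR adjusted p = 0.153).

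*Mcl1* (ENSMUSG00000038612.16, chromosome 3 from 95658788 to 95663176, plus strand), a short-lived anti-apoptotic protein, had 181, 171 and 168 CPM in mock, 178, 184 and 173 CPM in EPR and 188, 166 and 169 CPM in EPRSTOPE libraries. The groups overlapped throughout. On the log2 scale EPR cells differed from mock by 0.04, with a 95% interval of -0.08 to 0.16, and EPRSTOPE cells by 0.0066, with an interval of -0.12 to 0.13. No change beyond 0.5 lay within these intervals. *Mcl1* had the narrowest range of group means among the 10 genes, 0.041 on the log2 CPM scale.

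*Bcl2* (ENSMUSG00000057329.7, chromosome 1 from 106538178 to 106714274, minus strand), the founding anti-apoptotic gene, had 12.9, 16.2 and 14.5 CPM in mock, 12.6, 14.4 and 15.7 CPM in EPR and 14.7, 13.2 and 13.1 CPM in EPRSTOPE libraries. All 3 groups overlapped. Against mock, the log2 fold change was -0.04 in EPR (95% interval -0.30 to 0.22) and -0.10 in EPRSTOPE cells (95% interval -0.36 to 0.17). Its shorter coding transcript Bcl2-202 held 23.3, 33.1 and 21.0 estimated counts in mock, 29, 26.4 and 21.0 in EPR and 2.9, 13.6 and 4.8 in EPRSTOPE libraries. These low counts, not scaled for depth, did not overlap between EPRSTOPE and the others. In TPM, EPRSTOPE library 210 (0.526) lay above mock library 205 (0.484). Bcl2-202 was not called (edgeR adjusted p = 0.135 in EPRSTOPE against mock).

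Of the effectors, *Bax* (ENSMUSG00000003873.11, chromosome 7 from 45461697 to 45466898, minus strand) had 56.5, 68.0 and 69.2 CPM in mock, 124, 122 and 107 CPM in EPR and 113, 109.7 and 112 CPM in EPRSTOPE libraries. Both overexpressing pools lay wholly above mock and overlapped with each other. The excess of *Bax* over mock was 0.86 on the log2 scale in EPR (standard error 0.08, edgeR adjusted p = 3.71e-06) and 0.78 in EPRSTOPE (standard error 0.08, edgeR adjusted p = 8.4e-06). EPR and EPRSTOPE differed by 0.08, with a 95% interval of -0.08 to 0.24. The calls against mock held in each alternative fit, with values of 0.77 to 0.94 and 0.69 to 0.83 when single libraries were left out.

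Bax-201 (867 bases), the leading coding transcript, had 222, 346 and 456 estimated counts in mock, 645, 463 and 547 in EPR and 342, 656 and 579 in EPRSTOPE libraries. It was called higher in both comparisons with mock, at log2 fold changes of 0.67 (edgeR adjusted p = 0.0083) and 0.88 (edgeR adjusted p = 0.00201). Bax-203 (1100 bases, coding) was called in EPR against mock at 1.37 (edgeR adjusted p = 0.00724) and not in EPRSTOPE against mock, where it was 1.14 (edgeR adjusted p = 0.0154). Coding transcripts took 95.3% of the gene's counts in mock cells, 95.9% in EPR cells and 97.5% in EPRSTOPE cells.

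*Bak1* (ENSMUSG00000057789.13, chromosome 17 from 27019810 to 27029009, minus strand), the other effector, had 60.7, 60.4 and 58.4 CPM in mock, 62.1, 60.7 and 59.3 CPM in EPR and 58.8, 63.5 and 69.3 CPM in EPRSTOPE libraries. The groups overlapped. The log2 fold change was 0.02 in EPR against mock (95% interval -0.11 to 0.15) and 0.10 in EPRSTOPE against mock (95% interval -0.04 to 0.23). Only 23.7%, 28.6% and 31.8% of its counts went to protein-coding transcripts in mock, EPR and EPRSTOPE cells. Its transcripts share 20.4% of their 31-base words with *Ggnbp1* on the opposite strand, a gene with a mean of at most 3.10 CPM, and whether the counting used strand is not stated.

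Per library, the ratio of *Bax* to *Bcl2l1* CPM was 0.903 ± 0.143 in mock cells, 0.894 ± 0.030 in EPR cells and 0.936 ± 0.034 in EPRSTOPE cells (SD over n = 3), and all groups overlapped. The ratio of *Bax* to *Mcl1* was 0.374 ± 0.053 in mock cells, 0.661 ± 0.036 in EPR cells and 0.643 ± 0.035 in EPRSTOPE cells, with both overexpressing pools above every mock library. The ratio of *Bcl2l1* to *Mcl1* went with it, at 0.415 ± 0.010, 0.739 ± 0.044 and 0.687 ± 0.040. These are ratios of CPM, which compare libraries and not the levels of the genes per length.

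**Figure D2:**
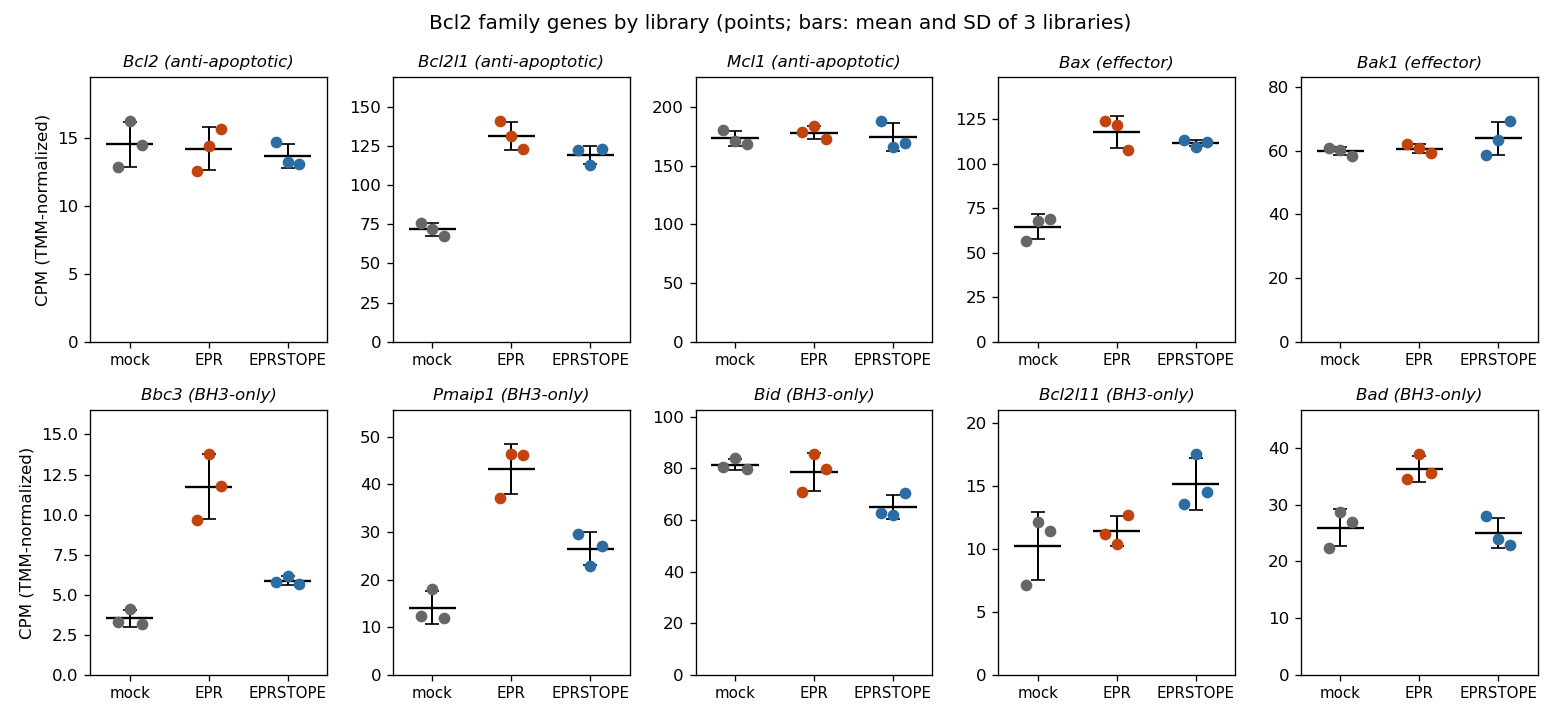
TMM-normalized CPM (y axes, from 0) of each Bcl2 family gene in the 3 mock, 3 EPR and 3 EPRSTOPE libraries (x axes); points are libraries, bars their mean and SD. *Bcl2l1*, *Bax*, *Bbc3* and *Pmaip1* lie above mock in every EPR and EPRSTOPE library, and *Bad* lies above both other groups in the EPR libraries.

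Among the BH3-only members, *Bbc3* (ENSMUSG00000002083.13, chromosome 7 from 16308393 to 16318205, plus strand) had 3.26, 4.12 and 3.17 CPM in mock, 9.69, 13.8 and 11.8 CPM in EPR and 5.76, 6.19 and 5.64 CPM in EPRSTOPE libraries. The 3 groups did not overlap, with mock lowest and EPR highest. These values rest on 21, 39 and 39 counts in mock, 111, 109 and 126 in EPR and 34, 58 and 49 in EPRSTOPE libraries. The log2 fold change was 1.73 in EPR against mock (standard error 0.20, edgeR adjusted p = 1.51e-05) and 0.99 in EPR against EPRSTOPE (standard error 0.19, edgeR adjusted p = 0.00181). In EPRSTOPE against mock it was 0.74 (standard error 0.21), just outside the limit with an edgeR adjusted p of 0.011. The call against EPRSTOPE was lost without EPR library 207 (0.87, edgeR adjusted p = 0.0106), with protein-coding transcripts only (1.23, edgeR adjusted p = 0.0157) and with counts rebuilt from TPM and length (0.63, edgeR adjusted p = 0.151).

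Most *Bbc3* counts went to the coding transcript Bbc3-201 (1814 bases), which begins 33 bases from the promoter start shown above, and to Bbc3-203 (881 bases), annotated as a retained intron. The coding Bbc3-202 and Bbc3-204 took 0 to 9.79 and 0 to 3.10 counts per library. Bbc3-201 had 1.79, 21.3 and 14.6 estimated counts in mock, 72.8, 74.9 and 75.3 in EPR and 19.0, 32.0 and 17.9 in EPRSTOPE libraries, with every EPR library above all others. Bbc3-203 had 16.4, 15.0 and 24.4 in mock, 34.3, 31 and 46.5 in EPR and 14.3, 21.5 and 21.3 in EPRSTOPE libraries. Neither transcript was called by itself, with edgeR adjusted p of 0.0446 and 0.172 in EPR against mock. Protein-coding transcripts held 40.2% of the counts in mock cells, 67.9% in EPR cells and 59.1% in EPRSTOPE cells. With these transcripts alone the gene's log2 fold change in EPR against mock was 2.34 (edgeR adjusted p = 0.000203). No 31-base word of *Bbc3* is shared with another gene.

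**Figure D3:**
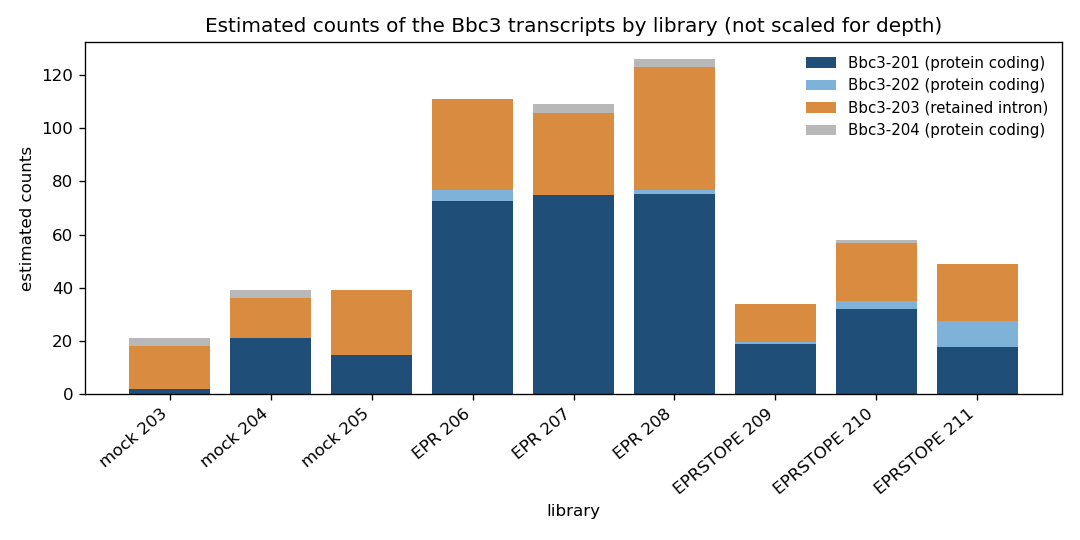
Estimated counts (y axis, not scaled for depth) of the *Bbc3* transcripts in each of the 9 libraries (x axis), stacked by transcript. The coding Bbc3-201 makes up 72.8 to 75.3 counts in the EPR libraries and 1.79 to 32.0 counts in the other 6, and the retained intron Bbc3-203 is present in all.

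*Pmaip1* (ENSMUSG00000024521.7, chromosome 18 from 66458533 to 66465565, plus strand), a BH3-only gene whose protein binds Mcl1, had 12.4, 18.0 and 11.9 CPM in mock, 37.2, 46.3 and 46.2 CPM in EPR and 29.6, 22.9 and 27.0 CPM in EPRSTOPE libraries. Its 3 groups also stood apart, in the order mock, EPRSTOPE and EPR. The log2 fold change was 1.61 in EPR against mock (standard error 0.16, edgeR adjusted p = 5.82e-06) and 0.90 in EPRSTOPE against mock (standard error 0.17, edgeR adjusted p = 0.000785). EPR exceeded EPRSTOPE by 0.71 (standard error 0.16, edgeR adjusted p = 0.00471). That last call was lost without any 1 of EPR libraries 207 and 208 and EPRSTOPE libraries 210 and 211, with values of 0.61 to 0.73 and edgeR adjusted p of 0.0141 to 0.021. The ratio of *Pmaip1* to *Mcl1* CPM was 0.082 ± 0.021 in mock cells, 0.243 ± 0.031 in EPR cells and 0.152 ± 0.012 in EPRSTOPE cells (SD over n = 3). The gene has 1 annotated transcript, so no other isoform could take its counts.

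*Bad* (ENSMUSG00000024959.13, chromosome 19 from 6941861 to 6951899, plus strand), a BH3-only gene whose protein is held in check by survival kinases, had 22.4, 28.7 and 26.9 CPM in mock, 34.5, 38.9 and 35.5 CPM in EPR and 28.0, 24 and 22.9 CPM in EPRSTOPE libraries. The EPR libraries lay above all others, and mock and EPRSTOPE overlapped. In EPR against EPRSTOPE the log2 fold change was 0.54 (standard error 0.11, edgeR adjusted p = 0.00313). In EPR against mock it was 0.47 (standard error 0.11, edgeR adjusted p = 0.00366), just under the fold limit, and it passed without mock library 204 or EPR library 206 or 208 (0.50 to 0.54). In EPRSTOPE against mock it was -0.07, with a 95% interval of -0.30 to 0.15. The call against EPRSTOPE was lost without EPR library 207 or EPRSTOPE library 210 or 211, with values of 0.49 to 0.52, and with counts rebuilt from TPM and length (0.40, edgeR adjusted p = 0.0885).

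The neighbourhood of *Bad* moved in the same comparison. Over the 211 tested genes within 5 Mb of it the median was 0.57 on the log2 scale in EPR against EPRSTOPE, with 96 called higher and 3 lower, so *Bad* differed from that median by -0.02. In EPRSTOPE against mock their median was -0.55, and *Bad* lay 0.48 above it, and in EPR against mock it was 0.01, with *Bad* 0.46 above. The 476 tested genes of chromosome 19 had medians of 0.55, -0.56 and -0.02 in these comparisons. *Bad* also shares 18.4% of its 31-base words with *Gpr137* on the opposite strand, which averaged 11.1 CPM in mock cells, 24.9 in EPR cells and 14.5 in EPRSTOPE cells and was called higher in EPR against mock (1.19, edgeR adjusted p = 2.18e-05) and against EPRSTOPE (0.77, edgeR adjusted p = 0.00124). The part of the neighbouring genes and of *Gpr137* reads in the values of *Bad* was not tested.

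The members called against mock lay above their neighbours. In EPR against mock *Bbc3*, *Pmaip1*, *Bcl2l1* and *Bax* exceeded the median of the tested genes within 5 Mb by 1.86, 1.64, 0.84 and 0.81, and those medians lay between -0.13 and 0.05. The differences in EPRSTOPE against mock were 0.82, 0.88, 0.77 and 0.73. *Bcl2*, in contrast, lay 0.60 below its 21 neighbours in EPRSTOPE against mock, whose median was 0.50.

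**Figure D4:**
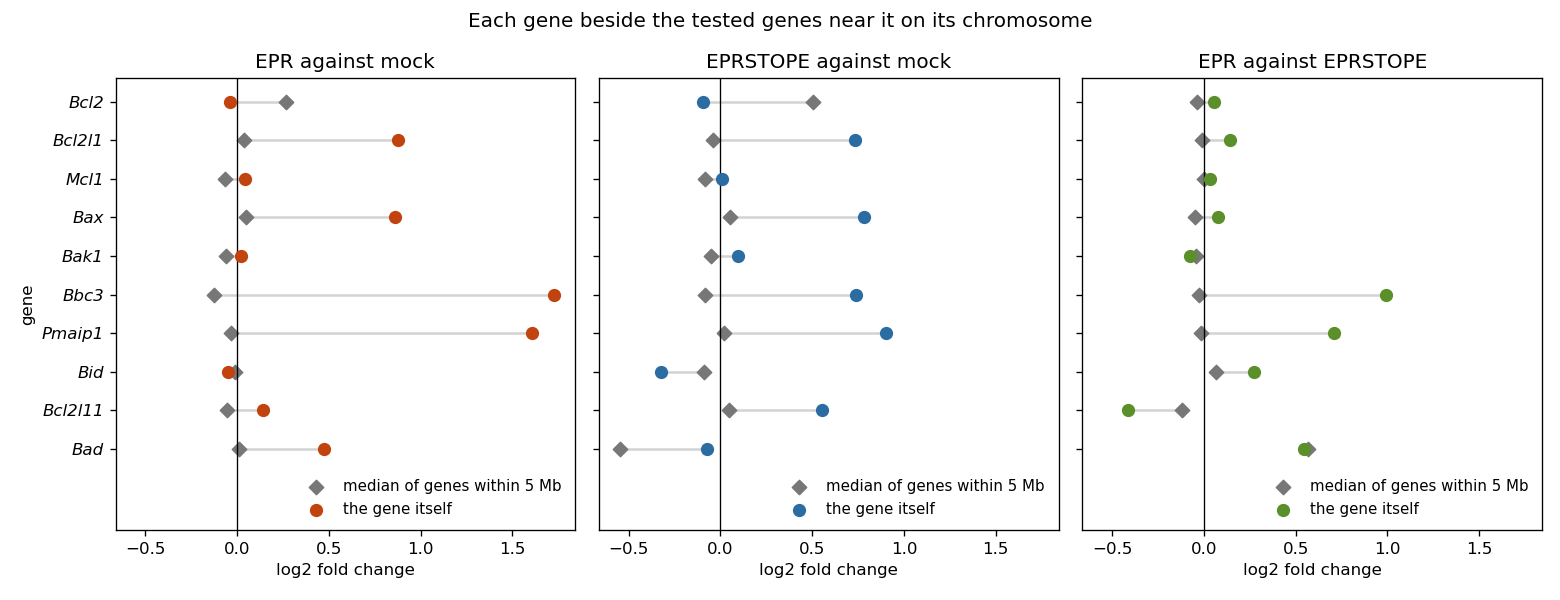
Log2 fold change (x axes) of each Bcl2 family gene (circles) and the median of the tested genes within 5 Mb of it (diamonds) in the 3 comparisons. *Bad* lies on its neighbours' median in EPR against EPRSTOPE (0.54 and 0.57), and *Bbc3* and *Pmaip1* lie far above theirs in EPR against mock.

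*Bid* (ENSMUSG00000004446.12, chromosome 6 from 120891930 to 120916853, minus strand), whose protein links death receptors to the mitochondria after cleavage by caspase-8, had 80.5, 83.9 and 79.8 CPM in mock, 70.9, 85.5 and 79.8 CPM in EPR and 62.9, 62.0 and 70.3 CPM in EPRSTOPE libraries. Every EPRSTOPE library lay below every library of the other groups, while mock and EPR overlapped. EPRSTOPE cells differed from mock by -0.32 on the log2 scale (standard error 0.08, edgeR adjusted p = 0.00483), short of the fold limit. EPR cells differed from mock by -0.05 (95% interval -0.20 to 0.10), and from EPRSTOPE by 0.27 (edgeR adjusted p = 0.021). *Bid* shares 16.9% of its 31-base words with *Bcl2l13* on the opposite strand, which fell by 0.57 in EPRSTOPE against mock (edgeR adjusted p = 5.4e-05), and how reads were divided between them was not tested.

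*Bcl2l11* (ENSMUSG00000027381.16, chromosome 2 from 128126038 to 128162547, plus strand), which encodes Bim, had 7.15, 12.1 and 11.4 CPM in mock, 11.2, 10.4 and 12.7 CPM in EPR and 13.6, 17.5 and 14.5 CPM in EPRSTOPE libraries. The EPRSTOPE libraries were the highest and did not overlap with the others, and mock and EPR overlapped. EPRSTOPE against mock gave a log2 fold change of 0.56 (standard error 0.19) with an edgeR adjusted p of 0.0296, which did not pass. Against EPRSTOPE, EPR cells were at -0.42 (95% interval -0.78 to -0.05, edgeR adjusted p = 0.121). Bcl2l11-205, the 5036-base coding transcript, took 34.9 to 71.4 estimated counts in mock, 56.1 to 98 in EPR and 49.8 to 120 in EPRSTOPE libraries and was not called in any comparison.

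Of the 46 annotated transcripts of the 10 genes, 37 were tested. EPR against mock gave 4 calls, all higher (Bax-201, Bax-203, Bcl2l1-201 and Pmaip1-201), beside 2.87% of all 45412 tested transcripts called higher. EPRSTOPE against mock gave 1, Bax-201, beside 3.11%. In EPR against EPRSTOPE 0 were called by edgeR and 0 by limma-voom, beside 0.469%, and at an unadjusted p under 0.05 edgeR gave 4 higher and 1 lower. Single libraries weighed heavily here: without mock library 203 or 205, 0 member transcripts were called in EPR against mock.

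The other transcripts with at least 10% of their gene's TPM in the mean of any group were either too low to be tested or not called in any comparison, and differences in their shares were not tested. Bcl2-201 (coding) took 58.9 ± 12.8% in mock cells, 62.5 ± 8.7% in EPR cells and 85.4 ± 9.0% in EPRSTOPE cells (SD over n = 3). Mcl1-201, the longer of its gene's coding transcripts, took 54.6 ± 8.7%, 67.8 ± 6.3% and 53.4 ± 8.4% in the same order, and Mcl1-202 the rest.

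Among the remaining *Bcl2l1* and *Bax* transcripts, Bcl2l1-204 (coding) had mean shares of 21.1%, 8.36% and 15.4% and Bcl2l1-209 (processed) of 25.2%, 15.2% and 16.5%, while Bax-202 had 5.45%, 13% and 3.96% and Bax-205 12.8%, 12.7% and 7.02%. For *Bak1* the nonsense-mediated decay transcript Bak1-201 took 32.8 ± 5.9%, 37.4 ± 14.1% and 51.8 ± 17.4%, the processed Bak1-203 56.3 ± 1.8%, 46.6 ± 10.5% and 23.9 ± 15.2%, and the coding Bak1-202 9.55%, 13.4% and 20.1%. The mean shares of Bbc3-202 were 0%, 4.68% and 20.7% and those of Bbc3-204 17.3%, 7.04% and 1.75%, from the few counts given above.

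Among the other BH3-only genes, Bid-201 (coding) took 62.0 ± 17.4%, 71.4 ± 3.7% and 82.2 ± 18.3% and the retained intron Bid-205 28.6 ± 13.8%, 20.8 ± 7.9% and 11.8 ± 15.7%. *Bad* was led by Bad-202, with 43.0 ± 15.5%, 47.0 ± 12.2% and 49.8 ± 8.2%, followed by Bad-204 with 19.7%, 19.0% and 18.5%, Bad-205 with 21.1%, 15.2% and 18.3% and Bad-201 with 7.04%, 14.5% and 11.1%, all coding. In *Bcl2l11* the coding Bcl2l11-204 took 29.3 ± 25.9%, 16.9 ± 14.7% and 37.0 ± 18.1%, and Bcl2l11-201, Bcl2l11-202, Bcl2l11-207 and Bcl2l11-208 had means of at most 10.2%, 12.6%, 13.3% and 13.5% in any group.

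On the scale of transcripts per 1000000 (TPM), which allows genes to be compared per length, *Bax* had the highest level in every group, with 105 ± 8.5 in mock cells, 158 ± 5.5 in EPR cells and 155 ± 10.7 TPM in EPRSTOPE cells (SD over n = 3). In mock cells *Mcl1* (67.6 ± 9.0 TPM), *Bcl2l1* (53.2 ± 7.2), *Bak1* (52.9 ± 4.2) and *Bid* (50 ± 7.8) followed, each overlapping with the next in its libraries, and *Bad* came below them with 39.4 ± 3.0 TPM. The lowest levels were those of *Bcl2l11* (5.12 ± 3.73), *Pmaip1* (4.62 ± 1.60), *Bbc3* (4.47 ± 1.12) and *Bcl2* (2.11 ± 0.48 TPM), of which only *Bbc3* and *Bcl2* did not overlap with each other as neighbours in the order. In EPR cells *Pmaip1* reached 14.4 ± 2.1 and *Bbc3* 9.66 ± 1.68 TPM, above *Bcl2l11* (4.04 ± 0.89) and *Bcl2* (2.14 ± 0.30) with no overlap between neighbours in that order. In EPRSTOPE cells *Pmaip1* was at 8.95 ± 1.14 TPM, and *Bbc3* (6.32 ± 1.5) and *Bcl2l11* (6.04 ± 1.63) overlapped.

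The TPM of the 10 genes summed to 384 ± 27.8 in mock cells, 448 ± 35.5 in EPR cells and 423 ± 35.8 in EPRSTOPE cells (SD over n = 3). The effectors *Bax* and *Bak1* made up 41.2 ± 1.8% of this sum in mock cells, 45.9 ± 1.6% in EPR cells and 46.1 ± 2.5% in EPRSTOPE cells, with both overexpressing pools above mock. The mean share of *Bax* was 27.3%, 35.4% and 36.9% in that order, and that of *Bak1* went the other way, at 13.8%, 10.5% and 9.23%. The BH3-only genes made up 27.0 ± 0.95%, 24.5 ± 1.1% and 19.9 ± 0.60%, lowest in EPRSTOPE cells without overlap. The anti-apoptotic genes made up 31.9 ± 1.9%, 29.6 ± 2.8% and 34 ± 2.0%, and these overlapped. TPM values carry the assignment of reads to transcripts of different length, and in *Bcl2l1* they overlapped between EPRSTOPE and mock (50.4 to 86.2 against 46.8 to 61.0 TPM) where CPM did not. As in any bulk sample, a lower level in all cells and a lower number of cells expressing a gene cannot be told apart.

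**Figure D5:**
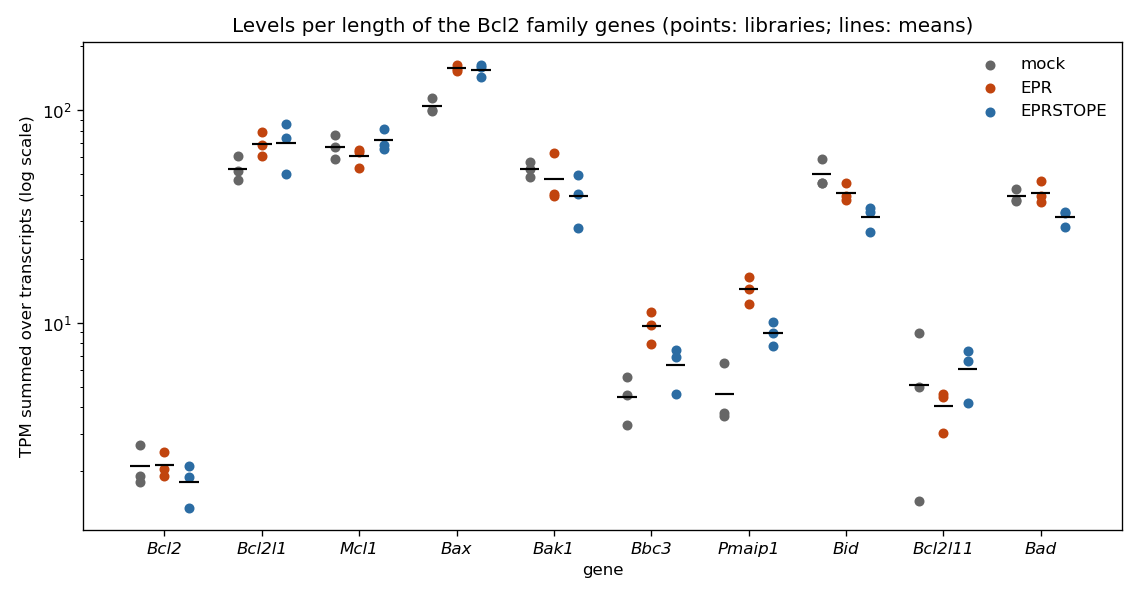
TPM summed over transcripts (y axis, log scale) of the Bcl2 family genes (x axis) in each library of mock, EPR and EPRSTOPE cells; short lines are means. *Bax* is highest in all groups (105, 158 and 155 TPM), and *Bcl2* is lowest (2.11, 2.14 and 1.78 TPM).

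By likeness over the 9 libraries, as Pearson's r of log2(CPM + 1) among 10707 genes averaging 5 CPM or more, *Bbc3* was most like *Prkca* (r = 0.982), *Gm42047* (0.982) and *Cgnl1* (0.981). *Pmaip1* was most like *Fam46b* (0.987), *Hpgds* (0.986) and *Ubl3* (0.983). With *Bbc3* 123 and with *Pmaip1* 120 of the 10707 genes reached an r of 0.95. The 9 points share 3 group levels, and these values are given as a description only.

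Of 15 other genes of the family, 8 were tested, and 5 of these were called higher and 1 lower in EPR against mock. The shares over all tested genes were 15.2% and 12.9%. The 5 include *Bcl2l15*, at 0 to 0.63 CPM in mock, 2.15 to 3.55 CPM in EPR and 0.53 to 2.30 CPM in EPRSTOPE libraries. *Bcl2l15*, which is outside the rule for named genes, entered the test only through overexpressing libraries, where it was high. Its call therefore carries no weight. *Bnip3*, a mitophagy receptor with a BH3-like motif, rose by 2.03 on the log2 scale (edgeR adjusted p = 2.15e-07), *Bmf*, a BH3-only gene, by 1.85 (edgeR adjusted p = 1.29e-08) and *Bnip3l*, a relative of *Bnip3*, by 1.38 (edgeR adjusted p = 3.05e-07). *Bok*, an effector-like gene, fell by 0.55 (edgeR adjusted p = 2.33e-05). EPRSTOPE against mock had 3 called higher and 1 lower, beside 15.6% and 12.4% of all tested genes. These were *Bmf* (1.72), *Bnip3l* (1.29) and *Bcl2l2* (1.21), which encodes the anti-apoptotic Bcl-w, against *Bcl2l13* (-0.57). Outside the rule for named genes, *Bcl2l2* was also called higher in EPR against mock (1.19, edgeR adjusted p = 5.96e-07). *Bnip3* also differed between the pools, by 1.60 in EPR against EPRSTOPE (edgeR adjusted p = 4.41e-06), where *Bok* was lower by 0.64 and the 6 other tested genes were not called. Of all tested genes 6.86% were called higher and 6.35% lower there. *Bnip3l* and *Bcl2l2* lie on chromosome 14 among tested genes whose medians within 5 Mb were 0.84 and 0.62 in EPR against mock and 0.93 and 0.77 in EPRSTOPE against mock, and the part of that shift in their values was not tested. The median log2 fold change of the 8, with *Bcl2l15* counted, was 1.28, 0.82 and 0.11 in the 3 comparisons.

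Downstream of the mitochondria, 18 genes of the caspase pathway were tested. In EPR against mock 4 were called lower, beside 12.9% of all tested genes. They were led by *Birc5*, which encodes Survivin (-0.93), *Htra2*, a mitochondrial protease that relieves caspase inhibition (-0.85), and *Casp2* (-0.73). In the EPRSTOPE pool 3 were called, all lower than in mock, beside 12.4% of all tested genes. These were *Birc5* (-1.87), *Htra2* (-0.64) and *Birc2* (-0.55). *Birc5* was higher in EPR than in EPRSTOPE cells (0.94). The medians of the list were 0.04, -0.05 and 0.03, near those of all tested genes. Of 12 partners at the outer membrane and regulators of *Mcl1* turnover, *Vdac2*, which is known to hold Bak at the membrane, was called higher in both comparisons with mock (1.10 and 1.58) and *March5*, a ubiquitin ligase of the outer membrane, in EPR against EPRSTOPE (0.60). *March5* lies on chromosome 19, where the 72 tested genes within 5 Mb had a median of 0.54 in that comparison. The other 11 genes were not called in each case. Of all tested genes 15.2% and 15.6% were called higher in EPR and EPRSTOPE against mock, and 6.86% in EPR against EPRSTOPE.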

How the data were processed

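RNA-Seq of 9 NMuMG libraries was used, 3 each of mock, EPR and EPRSTOPE cells as given by the genotype labels. Per the labels, total RNA was made into TruSeq Stranded Total RNA libraries and read as pairs of 75 bases on a NextSeq, while the study's methods name another instrument. For quantification the authors ran kallisto 0.43.1 with Gencode vM15 mouse transcripts (GRCm38.p5 in the submitters' processing notes) and deposited, per transcript, an unnormalized estimated count and its TPM, scaled by effective length to 1000000 per library. Whether kallisto used the strand is not given in the sources used here. All per-sample columns of counts and TPM were mapped to a library.

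Estimated counts were summed per gene symbol (52459 symbols, 131100 transcripts), rounded and normalized by TMM. The 15370 genes reaching 1 CPM in 3 or more libraries entered edgeR 4.0.16 (R 4.3.3) as 1 quasi-likelihood model of 3 groups over all 9 libraries, with Benjamini-Hochberg adjustment over all tested genes. Calls needed an adjusted p under 0.01 plus a log2 change beyond 0.5. Transcripts were tested likewise. Standard errors come from the quasi-likelihood F statistic. The exact two-sided permutation test of 3 libraries against 3 cannot go below 0.1, so none is printed. Depth was 5972457 to 11876435 estimated counts per library, and low counts limit the precision.

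The 10 genes and all gene lists were chosen with earlier results of these data known. All members are named. Some results of the caspase pathway list are not reported here. Of each other list, at most 3 called genes per direction and comparison averaging 5 CPM or more in the higher group are named, and of the transcripts those with at least 10% of their gene's TPM in any group. The genes most like *Bbc3* and *Pmaip1*, the members with the widest range of group means, were taken by Pearson's r. Positions and overlaps came from Gencode M21 on GRCm38, and promoters from RefSeq (GRCm38.p6). Biotypes were those in the transcript identifiers of the deposited values (Gencode vM15). Alternatives were DESeq2 1.42.0, limma 3.58.1 with voom, DESeq2 size factors, other filters and thresholds, counts rebuilt from TPM and length, protein-coding transcripts only, only the compared groups, and leaving out each library. On simulated counts for EPR against mock, edgeR recovered 147 of 200 genes changed by 1.5 on the log2 scale (147 of the 152 above 5 CPM) with 2 false calls. Tables and figures were made in Python 3.11.15 using numpy 2.4.6, pandas 2.3.3 and matplotlib 3.10.9.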

Additional observations from a re-analysis of the deposited data

Results flagged for a closer look

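*Bbc3*, *Pmaip1* and *Bad* drew attention because their differences from mock were not alike in the EPR and the EPRSTOPE pools, as tested directly in EPR against EPRSTOPE with edgeR's quasi-likelihood test and Benjamini-Hochberg adjustment. *Bbc3* was higher in EPR cells by 0.99 on the log2 scale (3 of 3 libraries above every EPRSTOPE library), *Pmaip1* by 0.71 (3 of 3) and *Bad* by 0.54 (3 of 3). Both pools share the mock libraries, EPRSTOPE cells held less BC030870 RNA than EPR cells (28 to 39 against 214 to 271 counts), and *Bad* differed as much as its neighbours on chromosome 19 did. The part of each of these in the differences was not tested. Groups of 3 libraries are too small for a search for single libraries that stand apart.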

How the results depend on the processing

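No paired analysis was possible because the groups share no replicate number. In EPR against mock 4 members were called with DESeq2, limma-voom, DESeq2 size factors, either other filter, protein-coding transcripts only and the compared groups alone, and 3 with counts rebuilt from TPM and length. A log2 limit of 1 left 2 members in EPR against mock, 0 in EPRSTOPE against mock and 0 in EPR against EPRSTOPE, and an adjusted p under 0.05 with no fold limit gave 6 in EPRSTOPE against mock. Counts rebuilt from TPM and length left 0 in EPR against EPRSTOPE. Leaving out single libraries gave 4 to 5, 3 to 3 and 0 to 3 members in the 3 comparisons, and 0 to 3, 1 to 2 and 0 to 0 member transcripts. Requiring 10 or more counts per library gave 3 transcripts in EPRSTOPE against mock. The cause of these shifts was not tested.

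Direction turned only in values that were not called. With counts rebuilt from TPM and length, EPR against mock was 0.21 for *Bcl2* and -0.15 for *Bcl2l11*, EPRSTOPE against mock -0.26 for *Bak1*, and EPR against EPRSTOPE -0.22 for *Mcl1* and 0.29 for *Bak1*. *Mcl1* in EPRSTOPE against mock was -0.013 with no filter, -0.0084 with at least 10 counts in every library and -0.069 with protein-coding transcripts only. Without single libraries the ranges crossing 0 were -0.12 to 0.050 for *Bcl2*, -0.0033 to 0.052 for *Bak1*, -0.11 to 0.026 for *Bid* and -0.045 to 0.26 for *Bcl2l11* in EPR against mock, -0.050 to 0.043 for *Mcl1* in EPRSTOPE against mock, and -0.0096 to 0.15 for *Bcl2* and -0.0013 to 0.10 for *Mcl1* in EPR against EPRSTOPE. Leaving out a library leaves 2 in its group. The counts of *Bbc3*, 21 to 39 per mock library, limit its precision, and shared sequence limits *Bad*, *Bid* and *Bak1*.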

Other observations

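The death receptor pathway joins the Bcl2 family through *Bid*. Of its 11 listed genes 8 were tested. In EPR against mock 4 were called higher, beside 15.2% of all tested genes, and in EPRSTOPE against mock 5 were, beside 15.6%, with edgeR's quasi-likelihood test and Benjamini-Hochberg adjustment. The receptor genes led in both. *Fas* went from a mean of 5.38 CPM in mock cells to 52.2 CPM in EPR and 29.7 CPM in EPRSTOPE cells, with log2 fold changes of 3.29 and 2.47, and it was higher in EPR than in EPRSTOPE cells by 0.82 (edgeR adjusted p = 0.000145). *Tnfrsf10b*, a receptor for Trail, went from 13.9 to 55.5 and 57.2 CPM, and *Tnfrsf1a*, a receptor for tumour necrosis factor, from 18.7 to 49.6 and 58.9 CPM. *Casp8*, the initiator caspase of the pathway, was lower in EPR than in EPRSTOPE cells by 0.74 on the log2 scale (edgeR adjusted p = 2.42e-05). *Tnfrsf10b* lies on chromosome 14, where the 67 tested genes within 5 Mb had medians of 0.86 and 0.93 against mock, and *Fas* on chromosome 19, where the 53 within 5 Mb had a median of 0.51 in EPR against EPRSTOPE. The part of these shifts in the values was not tested.

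Of 13 transcription factors known to act on members, 11 were tested, and 4 were called higher and 1 lower in each comparison with mock. Of all tested genes 15.2% were called higher and 12.9% lower in EPR cells, and 15.6% and 12.4% in EPRSTOPE cells. *Stat5a*, a mammary factor that acts on *Bcl2l1*, rose by 1.63 and 1.86 on the log2 scale, and *Stat3*, known from mammary involution, by 0.73 and 0.93. *Mitf*, which acts on *Bcl2*, rose by 2.30 in EPR against mock, and *E2f1* fell by 0.66. *Mitf* was also called higher in EPRSTOPE against mock (1.61, edgeR adjusted p = 0.0051), at low means of 1.09 CPM in mock and 3.60 CPM in EPRSTOPE cells. *Foxo1*, which acts on *Bcl2l11*, rose by 1.29 in EPRSTOPE against mock, and *Rela*, a subunit of NF-kB, fell by 0.83. The Rela gene lies on chromosome 19 among 195 tested genes within 5 Mb with a median of -0.53 in that comparison. *Trp53*, which encodes p53 and is outside the rule for named genes, was added after its values were seen: its mean was 112 CPM in mock cells, 80.4 in EPR cells and 83.9 in EPRSTOPE cells, with log2 fold changes of -0.48 and -0.41 that did not pass the fold limit. In EPR against EPRSTOPE 1 factor was called higher (*Rela*, 0.65) and 2 lower (*Foxo1*, -1.43, and *E2f1*, -0.97). Of all tested genes 6.86% were called higher and 6.35% lower in that comparison.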
